A study of Homo sapiens and Mus musculus with 16 samples.

Results

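Accessible chromatin was described at the loci of HNF4G and HNF4A, the genes of a pair of related nuclear receptors, and at their mouse orthologs Hnf4g and Hnf4a. Members were all regions of the 4 region lists that overlapped one of these genes or the 100 kb before and after it, as annotated by GENCODE in hg38 and mm10. There were 148 such regions, 84 at the human and 64 at the mouse loci, of 364071 regions in all. A site found in both lists of a pair counts once in each, so the 148 are list entries and not separate sites. ATAC-seq, which marks DNA that a transposase can reach, was performed on 16 samples in 4 groups of 4 replicates, and each group was represented by 1 list. No value was held per replicate and the read depth was unknown, so no difference between lists could be tested against replicate spread, and Wilson 95% intervals cover counting error only. The human groups were both HPAF-II, an established pancreatic adenocarcinoma cell line: control (Cas9) cells, and HNF4G-KO cells edited with Cas9 protein and guides to exons 3 and 4 of HNF4G, used as a pool of 3 clones. The edits were frameshifts, which the study's methods call heterozygotic while also naming the clones knockouts. These edits left the gene's promoters in place, so accessibility could not check the knockout label. The mouse groups were cell lines of the KPC model of pancreatic cancer, 1 from a primary tumor and 1 from liver mets, which the study calls matched and isogenic. The sample labels give different media for HPAF-II and KPC cells, whereas the study's methods give the same medium for both.

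HNF4A and HNF4G belong to the nuclear receptor superfamily and bind DNA as dimers at direct repeats of a short hexamer. HNF4A is a regulator of identity in liver, gut and pancreas, and works in a circuit with HNF1, FOXA and GATA factors that act on each other's genes. It is transcribed from separate promoters: the upstream one, P2, is known for its use in pancreas and gut, and the downstream one, P1, for its use in liver, so P1 and P2 transcripts begin with different first exons. HNF4G is a paralog expressed mainly in gut, kidney and pancreas, with less known about its control.

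The sequences shown first are those of the HNF4A promoters and of the regions in which the human and mouse loci can be compared letter by letter. They are the 250 bases before the first annotated start of P2 in human (hg38, chr20:44355449-44355698) and mouse (mm10, chr2:163506558-163506807), and before P1 in human (chr20:44400989-44401238), all on the plus strand. Both human stretches were the same letters as the RefSeq promoters of GRCh38.p14. Capitals mark consensus letters, searched on both strands, where N is any base: CAAAGTCCA for HNF4, TGTTTAC for FOXA, GTTAATNAT for HNF1, AGATAAG for the GATA family and TGANTCA for AP-1. No capitals of one motif overlapped those of another. P2 held none of the 5 in either species, and its human and mouse sequences shared an identical run of 45 bases, from base 183 to 227 in human. Only exact letters were searched, so absence of the letters does not show that a factor has no site there. P1 held the AP-1 letters at bases 26 to 32, as did 7.73% of 34796 RefSeq promoters in windows of 300 bases.
HNF4A P2: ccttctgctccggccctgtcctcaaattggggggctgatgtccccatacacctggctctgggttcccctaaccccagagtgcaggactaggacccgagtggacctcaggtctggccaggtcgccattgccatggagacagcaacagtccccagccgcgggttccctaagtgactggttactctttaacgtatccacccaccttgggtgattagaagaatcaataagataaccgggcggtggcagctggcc
Hnf4a P2: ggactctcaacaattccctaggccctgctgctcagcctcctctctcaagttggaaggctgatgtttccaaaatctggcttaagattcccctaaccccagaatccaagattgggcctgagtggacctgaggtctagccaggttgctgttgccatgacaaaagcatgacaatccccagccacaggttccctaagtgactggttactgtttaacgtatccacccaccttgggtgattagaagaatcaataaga
HNF4A P1: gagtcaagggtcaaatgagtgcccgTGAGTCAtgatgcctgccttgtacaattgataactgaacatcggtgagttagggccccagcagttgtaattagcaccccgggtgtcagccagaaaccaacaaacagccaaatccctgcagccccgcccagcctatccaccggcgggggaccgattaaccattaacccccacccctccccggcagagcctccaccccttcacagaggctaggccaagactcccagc

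The next sequences come from distal regions. The strongest region of the HNF4A locus spanned exon 3 of HNF4A, and the 300 bases before that exon (chr20:44407081-44407380) are shown, which held none of the 5. The whole region held the AP-1 letters in 2 places and the GATA letters in 1 in both lists, and the 300 bp around its center held the AP-1 letters in control only, since the centers differ. A region in the intron after the P2 exon (center at chr20:44370652-44370951) had an aligned mouse region (chr2:163515631-163515930) with 166 identical of 242 aligned columns. Its FOXA letters at base 170 stood at the same column as FOXA letters at base 119 in mouse, whereas its AP-1 letters had no AP-1 counterpart. The mouse stretch also held FOXA letters at base 20, and the human stretch held no other FOXA letters. A region downstream of HNF4A (chr20:44442645-44442944) aligned with a mouse region found in the liver mets list only (chr2:163580230-163580529) over 264 columns, 215 of them identical, and GATA letters stood at the same column in both, at base 153 in human and 107 in mouse. The last is the one region of all 148 with the HNF1 letters, in the liver mets list only, inside Hnf4g (chr3:3613711-3614010).
HNF4A strongest region: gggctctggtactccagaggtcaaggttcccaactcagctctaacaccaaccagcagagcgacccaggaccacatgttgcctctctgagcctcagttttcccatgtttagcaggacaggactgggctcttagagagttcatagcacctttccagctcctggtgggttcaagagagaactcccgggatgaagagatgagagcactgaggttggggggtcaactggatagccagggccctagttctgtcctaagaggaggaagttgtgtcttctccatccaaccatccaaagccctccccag
HNF4A P2 intron region: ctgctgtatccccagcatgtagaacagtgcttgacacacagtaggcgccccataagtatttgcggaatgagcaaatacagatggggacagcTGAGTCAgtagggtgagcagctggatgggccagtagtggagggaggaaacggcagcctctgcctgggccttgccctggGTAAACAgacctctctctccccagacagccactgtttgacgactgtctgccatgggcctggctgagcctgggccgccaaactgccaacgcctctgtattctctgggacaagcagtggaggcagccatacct
Hnf4a aligned region: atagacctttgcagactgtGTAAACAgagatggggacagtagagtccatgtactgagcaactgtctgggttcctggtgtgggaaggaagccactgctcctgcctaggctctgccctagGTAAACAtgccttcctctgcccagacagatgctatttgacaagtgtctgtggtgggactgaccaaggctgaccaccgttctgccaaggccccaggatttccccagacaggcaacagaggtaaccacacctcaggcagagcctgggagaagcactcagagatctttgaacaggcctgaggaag
HNF4A downstream region: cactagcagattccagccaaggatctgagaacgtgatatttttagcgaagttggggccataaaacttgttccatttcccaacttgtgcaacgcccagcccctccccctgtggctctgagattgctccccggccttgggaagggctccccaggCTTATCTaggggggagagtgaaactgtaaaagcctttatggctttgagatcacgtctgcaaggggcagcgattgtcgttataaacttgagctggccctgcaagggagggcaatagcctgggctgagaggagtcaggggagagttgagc
Hnf4a mets-only region: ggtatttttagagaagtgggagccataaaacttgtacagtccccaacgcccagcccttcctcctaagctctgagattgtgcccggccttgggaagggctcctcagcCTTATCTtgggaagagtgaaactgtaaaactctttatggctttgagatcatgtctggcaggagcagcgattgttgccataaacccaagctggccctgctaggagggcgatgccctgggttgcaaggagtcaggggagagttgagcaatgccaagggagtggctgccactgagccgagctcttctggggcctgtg
Hnf4g mets-only region: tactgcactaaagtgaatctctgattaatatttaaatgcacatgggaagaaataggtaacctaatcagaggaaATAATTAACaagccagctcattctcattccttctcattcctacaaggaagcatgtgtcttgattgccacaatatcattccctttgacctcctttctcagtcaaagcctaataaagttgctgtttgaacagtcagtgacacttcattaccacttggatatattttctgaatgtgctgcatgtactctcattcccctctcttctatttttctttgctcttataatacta

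The HNF4A gene lies at chr20:44355699-44432845 (hg38, plus strand, ENSG00000101076.20), and both of its promoters were accessible in control and in HNF4G-KO. Scores in the lists have no stated scale and were read only as percentiles within a list, where 100 is the strongest region. P2, from which 4 annotated transcripts start, lay in a region of 1757 bp at percentile 95.6 in control and of 1734 bp at 95.4 in HNF4G-KO. P1, with 13 transcripts, lay in a region of 884 bp at percentile 74.4 in control and of 915 bp at 69.2 in HNF4G-KO. P2 was thus above P1 in each list. With ranks among shared regions only, P1 was 1.06 and P2 0.958 points higher in HNF4G-KO, so the lower percentile of P1 in HNF4G-KO was not seen on that scale, and neither difference had a replicate check.

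The region with the highest score at the locus was neither promoter. It lay at chr20:44406756-44408108 in control and chr20:44406765-44408020 in HNF4G-KO, spanned exon 3 of HNF4A 5355 bp past the nearest P1 start, and ended 12 bp before MIR3646, a microRNA gene, in control. By score it was number 164 of 118107 regions in control and number 133 of 97047 in HNF4G-KO, at percentile 99.9 in both. The P2 intron region (chr20:44370328-44371276) stood at 97.4 in control and 97.6 in HNF4G-KO. Of the other regions in the upper 5 by score in control, those at the promoters of SERINC3, a membrane protein, and FITM2, a protein of lipid droplet formation, stood at 99.5 and 88.8 in control and at 99.7 and 87.4 in HNF4G-KO. The 5 strongest shared regions of the control list kept their percentile to within 2 points. In the HNF4G-KO list the intergenic region at chr20:44495740-44496495 stood at 90.5, above FITM2, against 88.0 in control.

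Of the 30 control regions at HNF4A, 5 (16.7%, 95% interval 7.34 to 33.6%) had no overlap in the HNF4G-KO list, where 25.0% of all control regions had none. Of the 26 HNF4G-KO regions, 1 (3.85%, 0.682 to 18.9%) had no overlap in the control list, against 6.76% of all HNF4G-KO regions. Both intervals covered the whole-list share. Weak regions are missing from the other list more often than strong ones, so the whole-list rates at each region's own score decile were also summed, which gave 6.93 control-only and 1.66 HNF4G-KO-only regions at the locus. On chromosome 20 as a whole the shares were 25.0% and 8.02%.

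All 6 one-list regions at HNF4A were in the lower part of their list, between percentiles 3.39 and 36.7. In the gene body, control-only regions lay at chr20:44362705-44362905, 7.11 kb past the P2 start at percentile 5.44, and at chr20:44393195-44393487 in the antisense gene HNF4A-AS1 at 28.1. Upstream, a control-only region at chr20:44288296-44288540 stood at 6.17. Downstream, control-only regions lay in the noncoding gene LINC01620 at chr20:44449336-44449548 (percentile 24.4) and chr20:44460861-44461334 (36.7). The only HNF4G-KO-only region, chr20:44465046-44465317 at percentile 3.39, was 11 bp from a LINC01620 start site.

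**Figure D1:**
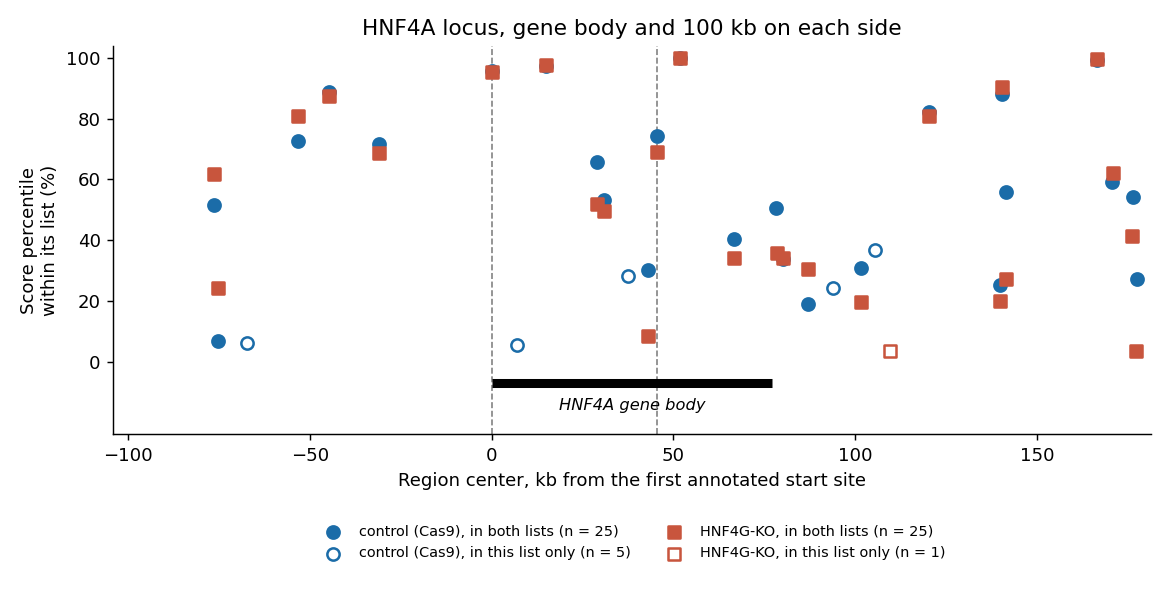
Score percentile within its list of each region at the HNF4A locus against the distance of its center from the first annotated start site in kb, for control (Cas9) (circles) and HNF4G-KO (squares); open symbols are regions in one list only, dashed lines mark P2 and P1, and the black bar is the gene body. The regions at P2, in the P2 intron and past P1 sit above 95 in both lists, and the 6 open symbols sit at or below 36.7.

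Among the 25 regions shared at HNF4A, 15 had a lower percentile in HNF4G-KO, and the median change was -1.53 points, beside -4.65 over all 88632 shared control regions, of which 70.0% were lower. The median reversed to 1.46 when ranks were taken among shared regions only (0.676 over all). The largest falls were at chr20:44497035-44497354 in an intron of SERINC3 (55.7 to 27.1), at chr20:44532748-44533371 near a start of PKIG, an inhibitor of protein kinase A (27.3 to 3.58), and at chr20:44398507-44398823, 2416 bp before P1 (30.3 to 8.54). The largest rises were 2 regions at the end of GDAP1L1, chr20:44280417-44280690 (6.69 to 24.3) and chr20:44279229-44279528 (51.5 to 61.7), and the downstream region with the conserved GATA letters, chr20:44442479-44443110 (18.8 to 30.4). Within the gene body, the antisense start at chr20:44384379-44385014 moved from 65.7 to 52.1.

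HNF4G, the edited gene, lies at chr8:75407914-75566834 (hg38, plus strand, ENSG00000164749.13) in a window of 358921 bp that holds no other protein-coding gene, only the noncoding gene CASC9 and a pseudogene. Its upstream promoter was accessible in both lists: the region there was 1314 bp wide at percentile 82.4 in control and 1338 bp wide at 82.7 in HNF4G-KO. The downstream promoter, which starts 2 annotated transcripts at chr8:75539869-75539968, had no region in either list, and the nearest lay 14007 bp away in control and 14065 bp away in HNF4G-KO. Exons 3 and 4 of transcript HNF4G-201 (chr8:75543811-75543979 and chr8:75547587-75547681) held no region in either list. The promoter of the gene was open in the edited cells, within 1 point of its percentile in control.

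The control list held 16 regions at HNF4G and the HNF4G-KO list 12. Of the 16, 4 (25.0%, 10.2 to 49.5%) had no overlap in HNF4G-KO, the same share as the 25.0% of all control regions, while the summed rates at their score deciles gave 2.59. Of the 12, 0 had none in control, which allows up to 24.2% by the Wilson interval, against 6.76% of all HNF4G-KO regions and a summed rate of 0.661. On chromosome 8 as a whole the shares were 25.3% and 7.53%.

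Of the 4 control-only regions, 3 were in introns of HNF4G. They lay at chr8:75442778-75442979 (percentile 11.3), chr8:75472849-75473202 (44.5) and chr8:75554837-75555318 (55.0). The last was the one member of the 22 one-list regions at all loci that stood above percentile 50. The other control-only region, chr8:75359383-75359608 (27.3), lay between CASC9 and HNF4G, 48.4 kb before the first start site.

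**Figure D2:**
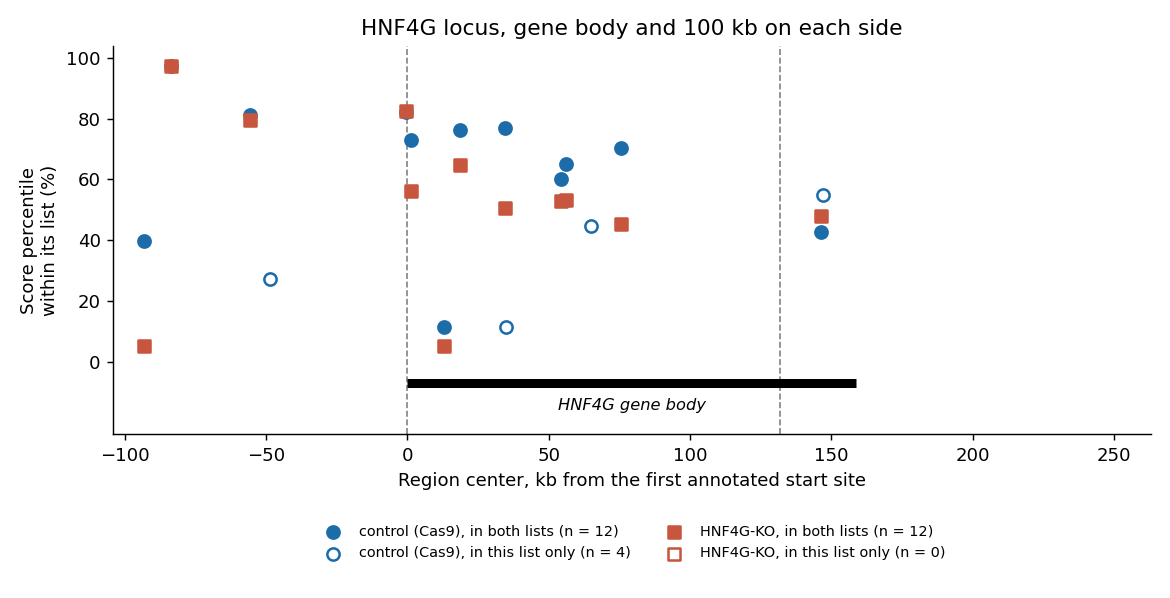
Score percentile within its list of each region at the HNF4G locus against the distance of its center from the first annotated start site in kb, for control (Cas9) (circles) and HNF4G-KO (squares); open circles are regions in control only, dashed lines mark the annotated promoters, and the black bar is the gene body. The promoter symbols coincide near percentile 82, most intronic squares lie below their circles, and nothing is plotted beyond the end of the gene.

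At HNF4G 9 of 12 shared regions had a lower percentile in HNF4G-KO, a share near the 70.0% over all shared regions, and the median change was -9.39 points beside -4.65 over all. With ranks among shared regions only, the medians were -1.99 and 0.676. The largest falls were in CASC9, from 39.8 to 5.19 at chr8:75314475-75314922, and in HNF4G introns, from 77.0 to 50.5 at chr8:75442336-75442665 and from 70.4 to 45.4 at chr8:75483358-75483685. The region 888 bp past the promoter starts, chr8:75408924-75409235, also within 1 kb of them, moved from 72.9 to 56.1, and the intronic region at chr8:75426195-75426975 from 76.4 to 64.7. Those with a higher percentile in HNF4G-KO were the promoter, the region at chr8:75553975-75554295 near the end of the gene (42.6 to 48.1) and the strongest region of the locus, chr8:75324161-75324861 at a CASC9 start site (97.3 to 97.5). A second CASC9 start site, chr8:75352013-75352875, stood at 81.4 and 79.5. The promoter and both CASC9 start sites stayed within 2 points on these ranks. With ranks among shared regions only, the promoter was 4.93 points higher in HNF4G-KO and the CASC9 start sites 0.906 and 2.75 points higher, while the 5 falls named remained falls, between -22.5 and -6.44 points.

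From the last region in HNF4G to the end of the window there was none over 111.516 kb in control and 112.524 kb in HNF4G-KO, and the next region outside lay more than 1 Mb further. The locus held 4.46 regions per 100 kb in control and 3.34 in HNF4G-KO, close to the 3.82 and 3.14 of the whole lists, whereas HNF4A held 10.8 and 9.38. Among 20007 protein-coding genes with the same window, HNF4A stood at percentile 82.2 by density in control and HNF4G at 28.2. By one-list share, among 15928 genes with at least 10 control regions, HNF4A stood at 37.3 and HNF4G at 68.0, both between the quartiles of 13.3 and 27.3%. In HNF4G-KO, among 14516 genes, they stood at 39.7 and 17.6. Hnf4a stood higher, at 79.9 among 12443 genes in the tumor list and at 80.2 among 13791 in the mets list, with its share above the upper quartile in both lists. Hnf4g had fewer than 10 regions in each KPC list and was given no place.

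**Figure D3:**
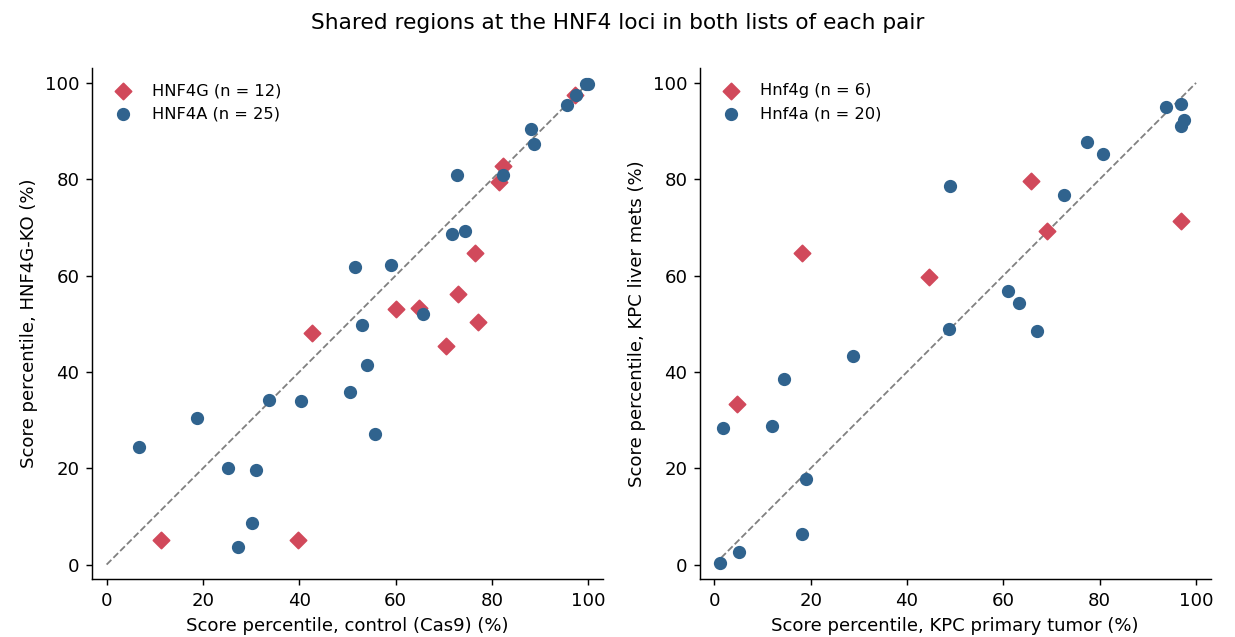
Score percentile of each shared region in both lists of a pair, control (Cas9) against HNF4G-KO on the left and KPC primary tumor against liver mets on the right, with HNF4G in diamonds, HNF4A in circles and equal percentiles on the dashed line. Above percentile 80 in control the human points lie within 3 points of the line, the HNF4G points between 60 and 80 in control lie below it, and 5 of 6 Hnf4g points lie above it.

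In the KPC lists the P2 promoter of Hnf4a again held a region, but P1 held none. Hnf4a lies at chr2:163506808-163572910 (mm10, plus strand, ENSMUSG00000017950.16). Its P2 region stood at percentile 93.7 in the primary tumor and 95.1 in liver mets. A second, weak region lay 482 bp past the P2 start site in the tumor list (1.07, and 0.379 in mets). The annotated P1 starts (chr2:163546817-163547188) had no region within 1 kb in either list, the nearest being 5519 bp away in the tumor list and 5460 bp in the mets list. A further start at chr2:163550083 also had none. The KPC lists thus held a P2 region at a rank like that of HPAF-II and no P1 region, where HPAF-II had one. Species and cell line differed together between these lists and cannot be told apart. Read depth, region calling and the KPC library protocol are also unknown, so a missing region does not show that P1 was closed.

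The human P1 region aligned with chr2:163546771-163547619 in mouse over 898 columns at 72.3% identity, so its sequence was present in mouse without a called region. The strongest human region aligned with chr2:163552193-163552884 (727 columns, 75.8% identity), over a mouse region at percentile 1.76 in the tumor list and 28.4 in mets. The aligned mouse region of the P2 intron stood at 11.9 and 28.8. Thus 2 of the strongest human regions in the gene body were matched by mouse regions below percentile 30, while the P2 promoters stood above 93 in all 4 lists.

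Of 30 control regions at HNF4A, 18 found a match in the Hnf4a window, 16 of them over at least 100 aligned columns, and 7 of the matches lay over a region of the tumor list and 9 over one of the mets list. Of 16 control regions at HNF4G, 5 found a match in the Hnf4g window, and 3 of these, all over 200 aligned columns, lay over regions of both KPC lists. They were the promoter (82.4% identity), the intronic region at chr8:75426195-75426975 (68.9%) and the region near the end of the gene (82.3%). The 4 other matches under 100 columns did not follow the order or strand of the genes throughout and are not read as counterparts. Of the 4 control-only regions of HNF4G, 1 had a match, of 50 columns.

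Of 23 tumor regions at Hnf4a, 3 (13.0%, 4.54 to 32.1%) were in the tumor list only, where 8.51% of all tumor regions were, and the summed rates by score gave 3.26. Of 26 mets regions, 6 (23.1%, 11.0 to 42.1%) were in the mets list only, where 20.2% of all mets regions were, with summed rates of 5.92. Both counts differed from the summed rates by less than 1 region. With the longer mets list cut by score to the size of the tumor list, the order of the shares reversed, to 6 of 23 (26.1%) tumor-only and 4 of 21 (19.0%) mets-only. The tumor-only regions all lay downstream and were weak, at chr2:163590293-163590607 (percentile 5.34), chr2:163595917-163596351 (14.0) and chr2:163634269-163634468 (7.17). Of the mets-only regions, 2 lay in the intron between P2 and P1, at chr2:163525699-163525971 (28.0) and chr2:163531977-163532241 (35.7). The other 4 lay downstream, at chr2:163574300-163574507 (1.11), chr2:163580168-163580591 (41.3), chr2:163644082-163644281 (1.22) and chr2:163663872-163664319 in Pkig (43.7). The first 2 of these 4 were over sequence that aligned with shared HPAF-II regions.

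Among the 20 shared regions at Hnf4a, 10 were lower in mets and the median change was -0.193 points, beside 3.67 over all 62280 shared tumor regions, of which 35.1% were lower. The largest rises were at chr2:163466839-163467227 in Fitm2 (48.9 to 78.5), at the region aligned with the strongest human one, chr2:163552707-163552909 (1.76 to 28.4), and at chr2:163658972-163659377 near a Pkig start (14.4 to 38.6). The largest falls were at the Pkig promoter (67.0 to 48.5), at chr2:163595246-163595628 (18.1 to 6.39) and at the Fitm2 promoter (63.2 to 54.3). The strongest regions of the tumor list lay near Oser1 (97.4 in tumor, 92.3 in mets), at the promoters of Serinc3 (96.9 and 91.0) and R3hdml (96.9 and 95.6) and at P2, followed by chr2:163481354-163482331 (80.6 and 85.2). In mets the Oser1 promoter, chr2:163418869-163420005, took the fifth place at 87.6, against 77.3 in the tumor list. In the gene body P2 was the only region above percentile 36 in either list, unlike the human gene, where the P2 intron and exon 3 regions stood above P2.

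Hnf4g lies at chr3:3508030-3658052 (mm10, plus strand, ENSMUSG00000017688.14). It held few regions, 6 in the tumor list and 9 in the mets list, and the window held no other protein-coding gene. Its upstream promoter stood at percentile 69.1 in the tumor list and 69.3 in mets, and as in human the downstream promoter (chr3:3634150) had no region within 1 kb. All 6 tumor regions were shared, where 8.51% of all tumor regions were in the tumor list only, with a summed rate of 0.656. Of 9 mets regions, 3 (33.3%, 12.1 to 64.6%) were in the mets list only, where 20.2% of all mets regions were. The summed rate for mets was 1.46, and the interval covered the whole-list share. The 3 were intronic, at chr3:3613750-3613972 (5.68), chr3:3618653-3618940 (36.5) and chr3:3640768-3641059 (44.6), and the last was the region nearest to the downstream promoter, 6618 bp away.

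Of the 6 shared Hnf4g regions, 5 had a higher percentile in mets, with a median change of 14.6 points beside 3.67 over all, where 35.1% were lower. The region 4.36 kb before the start site, chr3:3503549-3503792, moved from 18.1 to 64.7, and the intronic regions at chr3:3525976-3526234, chr3:3564085-3564488 and chr3:3645600-3646039 from 4.65 to 33.3, from 44.5 to 59.7 and from 65.7 to 79.7. The promoter was higher by 0.182 points, and lower in mets (-4.07 points) with ranks among shared regions only, where the other 5 kept their direction. The exception was the intergenic region at chr3:3719819-3720380, which moved from 96.8 to 71.4. The 3 intronic regions thus ranked higher in mets on both scales, and 6 regions are too few for the share to be set apart from the whole list.

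**Figure D4:**
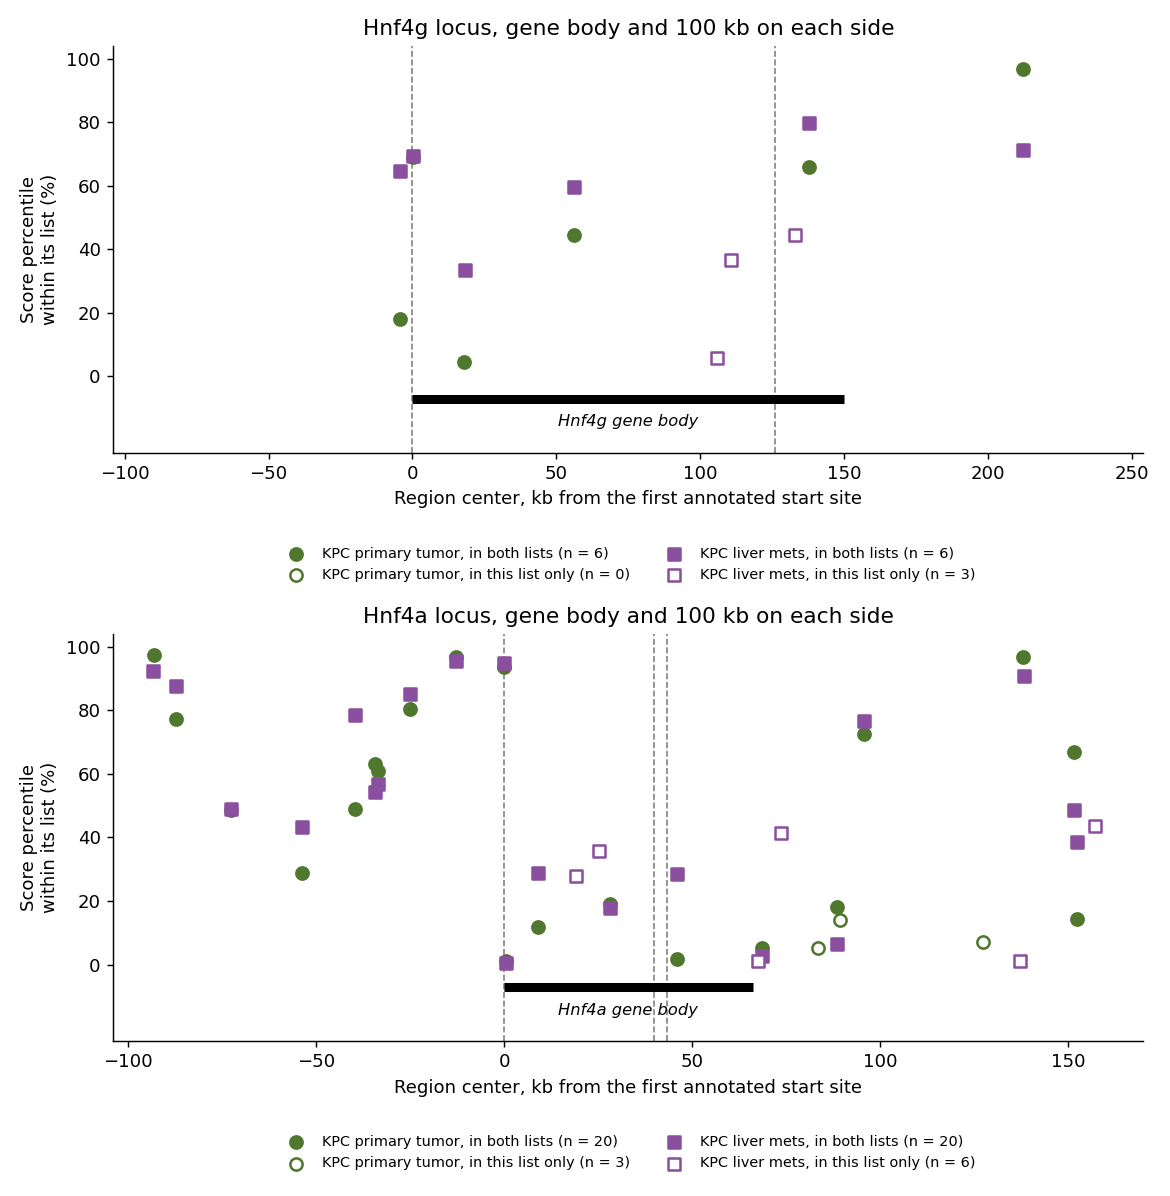
Score percentile within its list of each region at the Hnf4g (top) and Hnf4a (bottom) loci against the distance of its center from the first annotated start site in kb, for the KPC primary tumor (circles) and liver mets (squares) lists; open symbols are regions in one list only, dashed lines mark annotated start sites, and the black bar is the gene body. No symbol lies on the second dashed line of either gene, and the Hnf4a P2 symbols sit above 93.

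**Figure D5:**
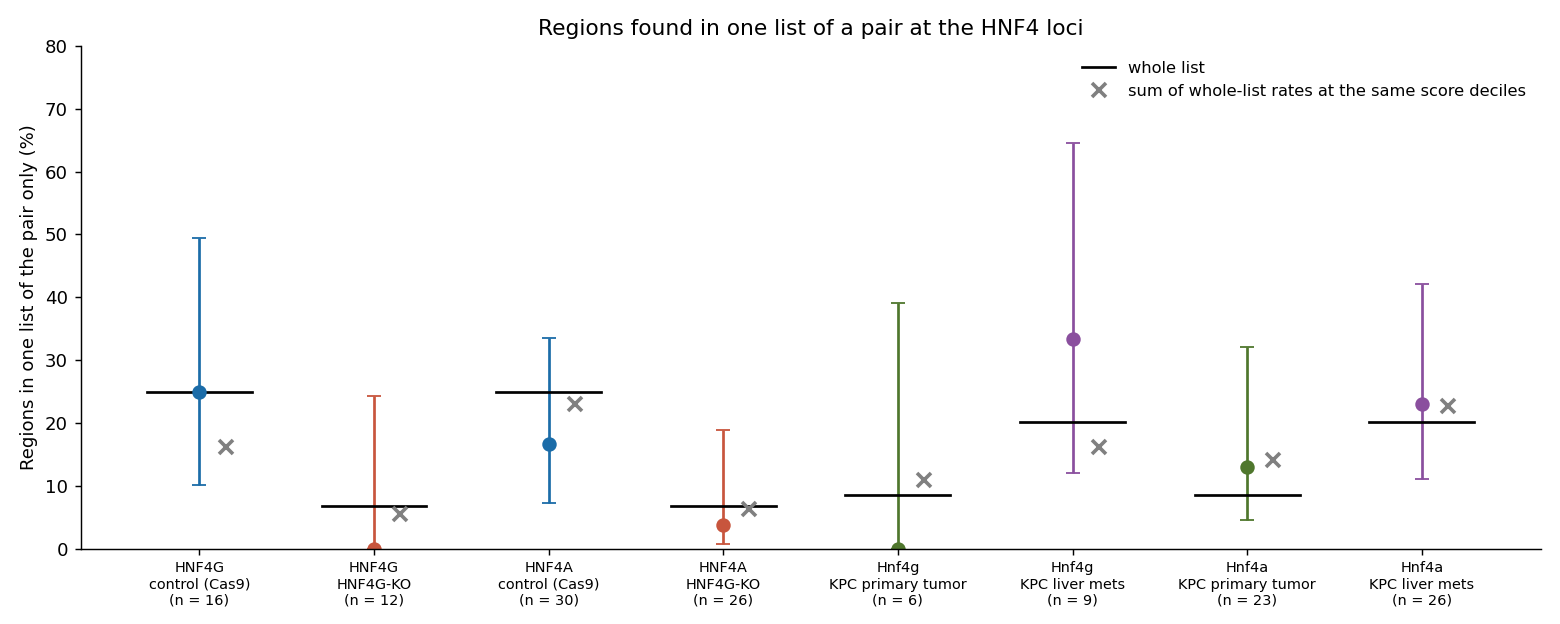
Share of locus regions in one list of the pair only, in percent, with Wilson 95% intervals (bars), the whole-list share (black line) and the sum of the whole-list rates at the regions' own score deciles (cross). Every interval covers both its black line and its cross.

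None of the 148 regions held the HNF4 letters in the 300 bp around its center, a window in which 1.00% of control, 0.916% of HNF4G-KO, 0.871% of tumor and 0.886% of mets regions held them. Within whole regions they occurred once, in the intergenic region 53.3 kb before HNF4A, chr20:44302077-44302713, in both HPAF-II lists (percentiles 72.7 and 80.9). The AP-1 letters were in 8 of 16 control and 5 of 12 HNF4G-KO regions at HNF4G and in 14 of 30 and 10 of 26 at HNF4A, beside 30.6% and 31.2% of the whole lists. At Hnf4a they were in 5 of 23 tumor and 3 of 26 mets regions, beside 36.5% and 37.1%, and at Hnf4g in 3 of 6 and 3 of 9. FOXA letters were in 2 and 1 regions at HNF4G, 2 and 1 at HNF4A, 0 and 0 at Hnf4g, and 3 and 3 at Hnf4a, beside 5.69 to 6.20% of the lists. GATA letters were in 1 region at HNF4A in each HPAF-II list and in 2 regions at Hnf4a in each KPC list, beside 3.88 to 4.61%. The HNF1 letters in the Hnf4g mets-only region were beside 1.41% of all mets regions.

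The genes around the HNF4 circuit were counted with 10 kb on each side of the gene body. Of 79 control regions at 14 endoderm factors such as FOXA2 and GATA6, 19 (24.1%) were in control only, and of 66 HNF4G-KO regions 3 (4.55%) in HNF4G-KO only. At 10 cofactors and competitors of HNF4, such as the orphan receptor NR2F6 and the coactivator NCOA2, the counts were 27 of 89 (30.3%) and 7 of 66 (10.6%). At 14 gut and liver targets, such as the apolipoprotein genes APOA4 and APOB, they were 11 of 50 (22.0%) and 6 of 47 (12.8%). In the KPC lists the tumor-only and mets-only counts were 5 of 64 and 13 of 80 at the endoderm factors, 6 of 47 and 5 of 49 at the cofactors, and 5 of 57 and 5 of 58 at the targets. The whole-list shares were 25.0% control-only, 6.76% HNF4G-KO-only, 8.51% tumor-only and 20.2% mets-only. The intervals of all 12 shares but 1 covered the whole-list share. The exception was the 5 of 58 mets-only regions at the targets (8.62%, 3.74 to 18.6%). Summed rates by score for mets-only regions were 11.1 at the targets, 11.5 at the cofactors and 20.3 at the endoderm factors, each above its count. For HNF4G-KO-only regions they were 3.53, 3.66 and 3.59 in the same order, and for control-only regions 11.6, 24.4 and 21.7. For tumor-only regions they were 5.57, 4.70 and 7.40.

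The genes most like HNF4A in the 4 one-list shares, among 9462 genes with at least 10 regions in each list, were TIRAP, NEMP1, EPOR, RHOA and CLU, at distances of 1.89 to 3.19 percentage points over the 4 lists. Among the 5 most like HNF4G, whose mouse shares rest on 6 and 9 regions, were ATOX1, FAM185A, XKR6 and LRRC66, at 1.67 to 3.57 points. The distances use 4 shares of small counts and are a description.

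The promoters of all 5 epithelial markers, EPCAM, CDH1, KRT8, KRT18 and KRT19, held a region in each of the 4 lists, and those of the 3 hepatocyte markers ALB, AHSG and TAT held none in any list. Acinar promoters held a region for 1 of 3 markers in each HPAF-II list and for 0 in KPC. The marker differed between the HPAF-II lists and its region was weak, CEL in control (percentile 0.044) and CPA1 in HNF4G-KO (14.8). Fibroblast promoters held one for 2 of 3 in HPAF-II, at percentiles 86.7 and 82.4 in control and 94.1 and 84.4 in HNF4G-KO. Those regions stood below the one at EPCAM (94.5 in control, 98.2 in HNF4G-KO). In KPC fibroblast promoters held one for 1 of 3 (75.8 in tumor, 79.8 in mets). Endothelial promoters held one for 0 in HPAF-II and 1 of 3 in KPC, PECAM1 (84.3 in tumor, 70.4 in mets). The fibroblast and PECAM1 regions in KPC stood above all 5 epithelial promoters, of which KRT19 was highest (58.1 in tumor, 65.9 in mets). An accessible promoter does not show that the gene was expressed.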

How the data were processed

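The study made the ATAC-seq libraries of HPAF-II with the Omni-ATAC protocol, and its methods do not describe the KPC libraries. How reads were shifted, regions called and replicates joined is not given in the sources used here. The submitters' processing notes name Bowtie2 2.2.6, MACS2 2.1.1.20160309 and DiffBind, without their roles. As deposited by the authors, each group has 1 list of regions with a score per region, whose scale is not stated, so scores were used as ranks within a list. A list from stronger or deeper libraries holds more weak regions, and the reads behind each list are unknown. No region ran past a chromosome end of hg38 or mm10, the builds used, and coordinates are 1-based. Groups were taken from the sample titles.

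An overlap of 1 bp or more with a region of the paired list made a region shared. Start sites within 500 bp were merged into a promoter (GENCODE 44 and M21), and a region within 1 kb was counted to it. Shared regions were paired by longest overlap. Consensus letters were counted in 300 bp around centers, and human regions were searched in the mouse window with blastn 2.17.0 at an E value of at most 1e-05. Wilson 95% intervals were computed with statsmodels 0.14.6. Other overlaps, windows, rankings, thresholds and motif spans were tried as alternatives. Overlap and ranking were tested on simulated data. Named regions were those at member promoters, those in one list, the 5 strongest shared and the 3 largest rises and falls per locus and pair. A network region near several genes of a list counted once. The members and lists were chosen with earlier results of these data known. Some genes and the results that need their names are not reported here.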

Additional observations from a re-analysis of the deposited data

How the results depend on the processing

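No paired analysis was possible because each group was represented by 1 region list, with no value per replicate, and for the same reason no replicate could be left out. Of 48 one-list shares under other settings, 44 stayed within their main interval, which is wide at these counts. Within it, cutting the longer list to the size of the shorter moved the tumor-only share at Hnf4a from 13.0% to 26.1%, the HNF4G-KO-only shares at HNF4A from 3.85% to 7.69% and at HNF4G from 0.0% to 8.33%, and the control-only share at HNF4A from 16.7% to 11.1%. With 10 kb on each side, 4 of 10 mets regions at Hnf4a were mets-only instead of 6 of 26, the HNF4G-KO-only share at HNF4A was 6.25% with 50 kb, and the tumor-only share at Hnf4a was 8.70% with regions within 500 bp counted as shared. With only the upper 50% of each list by score, the HNF4G-KO-only share at HNF4A was 0.0% (0 of 13 regions) and the mets-only share at Hnf4a 10.0% (1 of 10). With 10 kb on each side, the HNF4G-KO-only share at HNF4A was 0.0% (0 of 11) and the tumor-only share at Hnf4a 0.0% (0 of 6), since fewer regions entered. The median percentile change reversed to 1.46 at HNF4A with ranks among shared regions and to 0.335 at Hnf4a with 10 kb on each side. The cause of either reversal was not tested. The other 10 medians recomputed, all those at HNF4G and Hnf4g among them, kept their sign. Counting letters over whole regions, which are longer than 300 bp in part, gave 18 HNF4G-KO regions at HNF4A with any of the 5 consensus sequences instead of 11, and raised 10 counts of a single sequence by more than 1.5 times or from 0. At an E value of 1e-10, 3 HNF4G control regions had a mouse match instead of 5. Rates by score decile and width quintile, and a promoter distance of 500 bp, changed no count by more than 1.5 times. Read depth, which limits how many weak regions a list can hold, is unknown.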
